A study of Homo sapiens with 8 samples.

Results

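The zinc finger genes of chromosome 19 were followed through depletion of the Negative Elongation Factor complex (NELF) in HAP1, a near-haploid human cell line derived from a chronic myeloid leukaemia line. The set comprised the protein-coding genes of chromosome 19 in GENCODE v44 whose symbol is ZNF followed by digits, without ZNF473, which gave 239 of the 60725 genes in the counts table. Of these, 83 lie on the short arm (19p) and 156 on the long arm (19q). The arms were split at the widest stretch of the chromosome without a protein-coding gene, from 24129969 to 29205319 on GRCh38.

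All libraries came from a single HAP1 clone, SC9, which stably expresses dCas9-BFP-KRAB, a catalytically inactive Cas9 fused to a repressor domain, from the EF1-a promoter. The clone received a lentiviral guide RNA against NELFE (NELFE knockdown, 3 libraries), NELFB (NELFB knockdown, 2 libraries) or ADAM22 (control, 3 libraries), and was selected with puromycin. Polyadenylated RNA was collected 144 h after transduction. The fusion protein, the vector and the selection were therefore shared by every group, and each target was depleted with a single guide RNA. The question was how the clusters on either arm behaved when NELFE or NELFB was depleted.

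Most of these genes encode proteins with a row of C2H2 zinc fingers that read DNA and a KRAB domain that recruits the corepressor TRIM28, which in turn brings the H3K9 methyltransferase SETDB1 and HP1 proteins. They arose by repeated tandem duplication, sit in clusters, and are best known for silencing retrotransposons. The clusters are themselves packaged in H3K9me3 chromatin, to which ZNF274 contributes by binding the 3′ ends of zinc finger genes. NELF is known for its part in the pausing of RNA polymerase II shortly downstream of transcription start sites, which was not measured here, and NELFE and NELFB are subunits of it.

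Guide RNA sequences are shown first, because the members that differed between the knockdowns carry a stretch of the NELFB guide RNA beside a PAM near their start sites. In the sequences below, 5′ to 3′, capitals mark the run of bases shared with the NELFB guide RNA from its PAM end, and the last 3 bases of each site are the PAM. The guide RNA is given without the leading G of its cloning oligonucleotide, and the genomic sites are on the plus strand of chromosome 19 of GRCh38.
NELFB guide RNA: gccgagctgGAGGGCGCCG
ZNF443 site: ctgcccagaGAGGGCGCCGggg
ZNF799 site: ctgcccagaGAGGGCGCCGggg
ZNF823 site: ctgcccagaGAGGGCGCCGggg
ZNF44 site: tgcccagagagGGGCGCCGggg
The sites lie at chr19:12440677-12440698 in ZNF443, chr19:12400833-12400854 in ZNF799, chr19:11738566-11738587 in ZNF823 and chr19:12294442-12294463 in ZNF44. Each falls in an intron of the canonical transcript, 334, 428, 370 and 431 bases downstream of its start, respectively. The sites of ZNF443, ZNF799 and ZNF823 were identical over all 19 guide positions and the PAM.

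The libraries held 22037423 to 24444185 counted reads. NELFE was expressed at 50.5, 49.4 and 48.1 CPM (counts scaled to a common library size by the TMM method) in control cells, and at 2.41, 2.37 and 2.98 CPM in the NELFE knockdown. NELFB was at 74.4, 72.7 and 79.1 CPM in control cells, and at 3.07 and 2.78 CPM in its own knockdown. The labels thus matched the depleted mRNA in every knockdown library. ADAM22, the target in control cells, was at 13.7, 12.9 and 11.3 CPM there and between 29.9 and 47.4 CPM in the 5 knockdown libraries, which carry no guide RNA against it.

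Libraries were compared in pairs by a chi-square per gene, which is about 1 for counting noise alone, and none were copies. Control replicate 1 stood apart from the other control libraries, with a chi-square per gene of 17.1 and 29.4 against 5.76 between replicates 2 and 3. NELFE knockdown replicate 3 stood apart likewise, with 21.1 and 21.4 against 4.25 between replicates 1 and 2. Counts of changed members over the whole set and over each arm are therefore given with and without this pair of libraries. The study's methods describe the replicates of each knockdown as biological and independent, while the labels name no cultures, and p-values measure the spread between these libraries. HAP1 cells are known to have lost blood identity, and of the blood cell markers PTPRC, CD33 and SPI1 reached at most 0.0860, 0.222 and 0.0430 CPM in any library, GATA1 reached 0.387 CPM, and HBG1 had no reads. CD34 was at or below 0.133 CPM in control cells and between 0.258 and 2.78 CPM in the knockdowns, and whether this bears on any result below was not tested.

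Together the members took between 0.344 and 0.356% of all counts in each library. Reads were too few to test 52 members, 31 on 19p and 21 on 19q, and 11 of these had no read in any library. Tested members made up 62.7% of the 19p set and 86.5% of the 19q set. Levels corrected for transcript length (TPM) had a median of 3.27 on 19p and 8.44 on 19q in control cells. The median of the tested members was 10.5 TPM, against 23.5 TPM for all tested protein-coding genes. Zinc finger genes thus had low counted levels even where they could be tested, while reads that align to several places were not counted. Low counted levels were concentrated in the cluster nearest the centromere on 19p, 19p-4 in the numbering used here (37 members from 19668796 to 24129968). There, 18 members were tested and the median was 0.0796 TPM. By contrast, 53 of the 57 members of the distal 19q cluster, 19q-5 (55476617 to 58481230), were tested.

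The most abundant members on 19q were ZNF146, whose protein consists of fingers alone, at 252 TPM, ZNF581 at 56.3 TPM and ZNF428 at 49.7 TPM. On 19p they were ZNF121 at 76.1 TPM, ZNF317 at 56.6 TPM and ZNF266 at 56.2 TPM. Of these 6, ZNF121 fell in both knockdowns and the others were called in neither. ZNF146 illustrates the spread within a group, at 216, 267 and 283 CPM in control cells, 216, 221 and 241 CPM in the NELFE knockdown and 226 and 222 CPM in the NELFB knockdown. Its lowest control library overlapped both knockdowns (adjusted p = 0.268 and 0.259, edgeR).

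In the NELFE knockdown, 11 members rose and 13 fell among the 187 tested (12.8%), with edgeR's quasi-likelihood test and an adjusted p under 0.05 over all 16852 tested genes. Over all tested genes 15.0% were called, 7.92% up and 7.04% down. In the NELFB knockdown, 12 members rose and 18 fell (16.0%), where the share over all tested genes was 19.5%, 10.6% up and 8.88% down. The 12 increases include ZNF568, which had enough reads to be tested through the NELFB libraries alone. With the 5 knockdown libraries set together against control, 19 members rose and 24 fell of 186 tested (23.1%), against 26.0% of all genes, 13.3% up and 12.7% down. These shares were near those of genes at large. ZNF genes of other chromosomes had shares close to those of chromosome 19, where 13.1% of 206 tested genes were called after NELFE and 16.5% after NELFB depletion. Both knockdowns were measured against the same control libraries, so calls made in both are not independent.

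The counts moved strongly with the libraries used. Without control replicate 1 and NELFE knockdown replicate 3, the NELFE knockdown had 53 called members (28.3%) and the NELFB knockdown 58 (31.0%), while the share over all genes rose to 36.0% and 41.5%. With pooled knockdowns, 24 members then rose and 38 fell (33.2%), against 39.9% of all genes. Without NELFE knockdown replicate 2, 7 members were called in the NELFE knockdown (3.74%, against 6.55% of all genes). Without NELFB knockdown replicate 1, 7 were called in the NELFB knockdown (3.72%, against 3.45% of all genes), where the remaining NELFB library is assumed to vary like the other groups. Of the 24 members called in the NELFE knockdown, 6 were called whichever library was left out, namely ZNF121, ZNF470, ZNF681, ZNF724, ZNF8 and ZNF814. Of the 30 called in the NELFB knockdown, 5 were, namely ZNF121, ZNF443, ZNF470, ZNF799 and ZNF823.

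**Figure D1:**
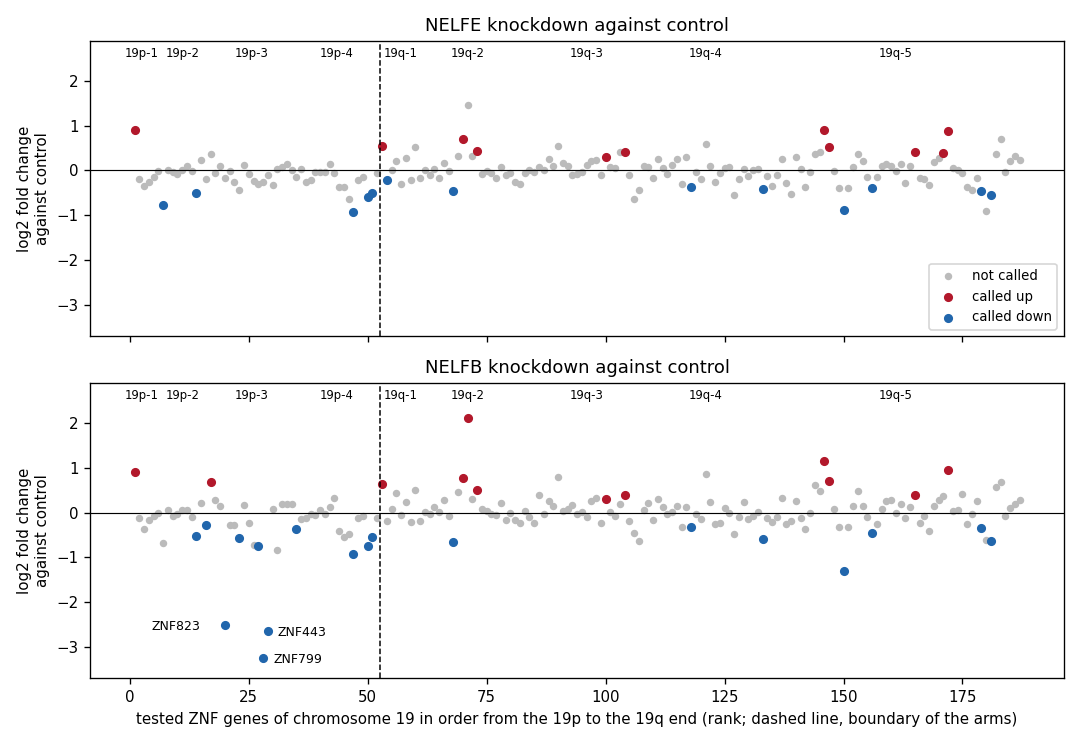
Log2 fold change against control (vertical axis) of the 187 tested ZNF genes of chromosome 19, ordered from the 19p end to the 19q end (horizontal axis, rank), in the NELFE knockdown (top) and the NELFB knockdown (bottom). Red and blue points passed an adjusted p under 0.05, gray points did not, and the dashed line separates the arms. Most points lie near 0, and ZNF443, ZNF799 and ZNF823 lie below -2 in the NELFB knockdown alone.

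The arms were compared next. On 19p, 1 member rose and 5 fell in the NELFE knockdown (11.5% of 52 tested), and 2 rose and 11 fell in the NELFB knockdown (13 of 52). The 11 decreases were 21.2% of the 19p members tested, against 8.88% of all genes, and 3 of them were the genes with the site shown above. On 19q, 10 rose and 8 fell in the NELFE knockdown (13.3% of 135 tested), and 10 rose and 7 fell in the NELFB knockdown (12.6%). Of all tested genes, 15.0% were called in the NELFE knockdown (7.92% up, 7.04% down) and 19.5% in the NELFB knockdown (10.6% up, 8.88% down). Without control replicate 1 and NELFE knockdown replicate 3, the 19p counts were 1 up and 12 down in the NELFE knockdown and 3 up and 15 down in the NELFB knockdown. Those of 19q were then 16 up and 24 down, and 21 up and 19 down. With the same libraries left out, 17.6% of all genes were called up and 18.4% down in the NELFE knockdown, and 21.1% and 20.4% in the NELFB knockdown. The median log2 fold change of the 19p members was -0.09 in the NELFE knockdown and -0.12 in the NELFB knockdown, and negative values outnumbered positive ones by 38 to 14 and by 36 to 16. With single libraries left out, these medians ranged from -0.16 to -0.06 and from -0.16 to -0.09, respectively. Without a filter on low counts they were -0.03 and -0.05. The 19q members had medians of 0.01 and 0.02, with 71 and 74 of 135 positive. The sign of these 19q medians depended on the libraries. In the NELFE knockdown the median was -0.05 without control replicate 1 and -0.01 without NELFE knockdown replicate 3, and in the NELFB knockdown it was -0.01 without NELFB knockdown replicate 1. Over all tested genes both medians were close to 0 (-0.0052 and -0.0034).

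Measured against the mean of the control libraries, the median log2 ratio of the tested 19p members was -0.15, -0.22 and -0.01 in the NELFE knockdown and -0.13 and -0.13 in the NELFB knockdown. Control libraries ranged from -0.02 to 0.03. NELFE knockdown replicate 3 thus lay close to control cells, while the other 4 knockdown libraries lay below them. For 19q, the ratios of the knockdown libraries, from -0.03 to 0.04, fell within those of control libraries, from -0.08 to 0.05. The difference between the arms (19q minus 19p) was 0.10 in the NELFE knockdown and 0.13 in the NELFB knockdown. The SD of this difference between libraries, taken from the group with the larger spread, was 0.0742 and 0.0443. The former is that of the NELFE knockdown libraries and the latter that of the control libraries. With single libraries left out, the difference ranged from 0.0664 to 0.1521 and from 0.1296 to 0.1796, respectively. Without a filter on low counts it was smaller, at 0.052 and 0.0562.

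The other protein-coding genes of 19p also had negative medians, with a log2 fold change of -0.11 in the NELFE knockdown and -0.11 in the NELFB knockdown (384 tested), with 4.69% and 7.03% called up and 13.5% and 13.8% called down, against 7.04% and 8.88% down over all genes. Those of 19q had medians of -0.07 and -0.03 (391 tested), with 7.93% and 13.3% called up. Of these 391 genes 43 and 41 were called down, the latter 10.5%, and both shares were also above those of decreases over all genes. These 19q medians were below 0, unlike those of the 19q zinc finger genes, and neither arm was tested against its other genes. ZNF genes of other chromosomes had medians of 0.01 and -0.02.

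Summed over all 83 members, 19p reached 1106, 1152 and 1183 CPM in control cells, 1034, 1022 and 1100 CPM in the NELFE knockdown, and 1022 and 1038 CPM in the NELFB knockdown. Every knockdown library was below every control library, with means 8.27% and 10.2% below that of control cells. With the size factors of DESeq2 in place of TMM, the highest NELFE knockdown library (1100.2 CPM) overlapped the lowest control library (1098.7 CPM), and the NELFB knockdown did not overlap. Part of this sum was ZNF121 alone. Without it the NELFE knockdown was 5.48% below control cells and overlapped them, and the NELFB knockdown was 7.53% below and did not. The 156 members of 19q summed to 2262, 2498 and 2509 CPM in control cells, to 2350 to 2471 CPM in the NELFE knockdown and to 2418 and 2429 CPM in the NELFB knockdown, so that the groups overlapped. Scaled to total counts alone, the NELFB libraries (2444.7 and 2463.2 CPM) lay above every control library (at most 2437.3 CPM), by 3.03% on average. The ratio of the 19q to the 19p sum was 2.11 ± 0.0618 in control cells (SD, n = 3), 2.28 ± 0.0302 in the NELFE knockdown (SD, n = 3) and 2.35 ± 0.0179 in the NELFB knockdown (SD, n = 2), with no overlap between control and knockdown libraries. The 19p sum in this ratio includes ZNF121, ZNF443, ZNF799 and ZNF823, and the ratio is not given without them. In bulk RNA, fewer cells that express a gene and less RNA per cell cannot be told apart.

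**Figure D2:**
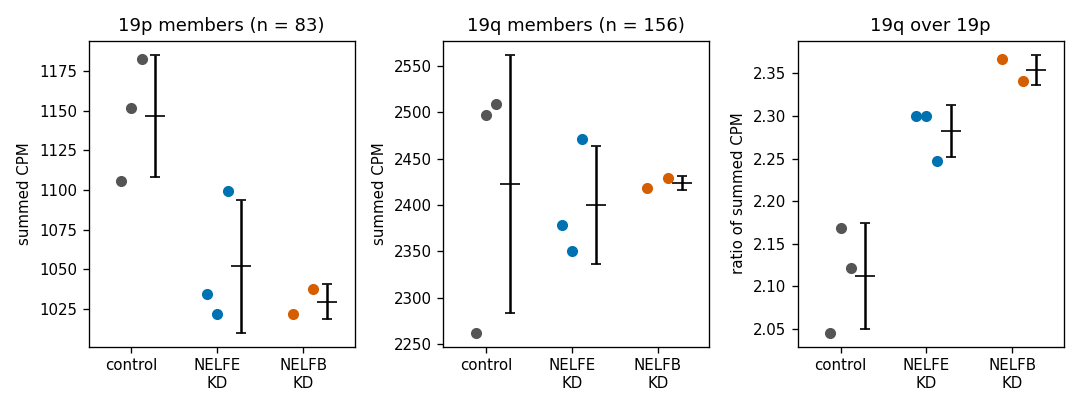
Summed TMM-scaled CPM of the 19p members (left) and 19q members (middle) and the ratio of the 19q to the 19p sum (right), with 1 point per library and the mean with its SD beside the points of each group (KD, knockdown). The vertical axes do not start at 0. The 5 knockdown libraries lie below the control libraries on 19p, overlap them on 19q, and lie above them in the ratio.

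Position clusters were formed from members whose neighbouring starts are at most 1 Mb apart. On 19p, the cluster 19p-3 (11483427 to 12640098, 25 members, 16 tested) had no call in the NELFE knockdown and 5 decreases in the NELFB knockdown, with medians of -0.09 and -0.28. These decreases were ZNF443, ZNF799, ZNF823, ZNF442 and ZNF700, of which the first 3 carry the site shown above. Without them, 2 of 13 tested members of this cluster fell in the NELFB knockdown and the median was -0.23. In 19p-4, 3 of 18 members fell in the NELFE knockdown and 4 in the NELFB knockdown, and none rose, which was 16.7% and 22.2% down against 7.04% and 8.88% of all genes. Negative values were found for 16 and 15 of these 18 members, for 253 and 239 of the 384 other genes of 19p, and for 8539 and 8479 of the 16852 genes tested. In 19p-2 (7069703 to 9793180), 2 of 13 fell in the NELFE knockdown, and 1 rose and 2 fell in the NELFB knockdown. In 19p-1 (2819868 to 2944971), ZNF554 rose in both knockdowns and the other 3 tested members were not called.

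On 19q, the calls of 19q-3 (43525497 to 45076478, 21 tested) were increases, 2 in each knockdown, and those of 19q-4 (51571283 to 53580269, 27 tested) were decreases, 2 in each. These shares, 9.52% up and 7.41% down, were near those of all genes (7.92% and 10.6% up, 7.04% and 8.88% down). The cluster 19q-2 (36182276 to 37817300, 23 tested) had 2 increases and 1 decrease in the NELFE knockdown and 3 and 1 in the NELFB knockdown, with ZNF568 among the 3. In 19q-5 (53 tested), 5 rose and 4 fell in the NELFE knockdown, and 4 rose and 4 fell in the NELFB knockdown. No member of 19q-1 (34677639 to 34964229, 5 tested) was called in either knockdown. Rises and falls thus occurred side by side in the largest 19q cluster. Such counts are small, and no cluster was tested against another.

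A total of 10 increases and 11 decreases among the 187 tested members were called in both knockdowns, where 6.63% and 5.48% of all genes were. Of these, the largest increase on average was that of ZNF471 (ENSG00000196263.7, 19q-5, chr19:56507850-56530221). ZNF471 was at 4.89, 4.30 and 2.89 CPM in control cells, at 7.56, 8.60 and 6.42 CPM in the NELFE knockdown and at 9.54 and 8.50 CPM in the NELFB knockdown. All knockdown libraries lay above all control libraries. The log2 fold change was 0.90 (SE 0.20, adjusted p = 0.016, edgeR) and 1.16 (SE 0.22, adjusted p = 0.00568, edgeR).

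ZNF470 (ENSG00000197016.11), the neighbour of ZNF471 at chr19:56567468-56588911, was the increase that was called whichever library was left out in both knockdowns. It was at 14.2, 15.1 and 15.2 CPM in control cells, at 21.8, 20.3 and 21.6 CPM in the NELFE knockdown and at 24.6 and 23.4 CPM in the NELFB knockdown. Its groups were well separated, with log2 fold changes of 0.52 (SE 0.09, adjusted p = 0.00583, edgeR) and 0.70 (SE 0.10, adjusted p = 0.00161, edgeR). ZNF814 (chr19:57848731-57889074) rose from 10.6, 13.3 and 13.2 CPM to between 20.2 and 26.8 CPM in the knockdowns, with log2 fold changes of 0.87 and 0.94 (adjusted p = 0.00534 and 0.00387, edgeR). Of the exon bases of ZNF814, 23.0% are shared with other genes, and 18.4% of its 65-base windows occur more than once on chromosome 19, so its count is less certain.

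The other increases called in both knockdowns were smaller or noisier. ZNF554, the sole one on 19p (chr19:2819868-2836735), was at 3.60, 2.70 and 2.15 CPM in control cells and as low as 3.63 CPM in NELFE knockdown replicate 3. Its log2 fold change was 0.90 and 0.89 (adjusted p = 0.0353 and 0.0416, edgeR), and 2 of 8 omissions of a library kept the call in each knockdown. ZNF536, known as a repressor in neural differentiation, had log2 fold changes of 0.54 and 0.64 (adjusted p = 0.0213 and 0.0123, edgeR), and rose from 27.97 to 31.11 CPM in control cells to 33.4 to 49.0 CPM in the knockdowns. ZNF345, ZNF383, ZNF211, ZNF112 and ZNF226 had log2 fold changes between 0.29 and 0.78 with no overlap between control and knockdown libraries. Their calls held in 1 (ZNF383 and ZNF226) to 7 (ZNF211) of 8 omissions of a library in the NELFE knockdown, and in 2 (ZNF112 and ZNF226) to 5 (ZNF345 and ZNF383) in the NELFB knockdown. The smallest, ZNF226, was at 23.9 to 24.8 CPM in control cells and at 27.9 to 30.9 CPM in the knockdowns.

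Among the decreases, ZNF121 (ENSG00000197961.11, 19p-2, chr19:9560329-9584504) combined a high level with a narrow spread. It was at 126, 137 and 141 CPM in control cells, at 99.9, 93.0 and 93.6 CPM in the NELFE knockdown and at 93.8 and 94.3 CPM in the NELFB knockdown. The log2 fold change was -0.50 (SE 0.07, adjusted p = 0.00271, edgeR) and -0.52 (SE 0.08, adjusted p = 0.00256, edgeR), and the call held in all 8 omissions of a library in both knockdowns. Among the decreases called in both knockdowns, the largest on average was that of ZNF460 (19q-5, chr19:57280051-57294069), from 5.09, 4.70 and 4.47 CPM to 3.03, 2.58 and 2.05 CPM in the NELFE knockdown and 1.54 and 2.31 CPM in the NELFB knockdown. Its groups did not overlap (log2 fold change -0.89 and -1.31, adjusted p = 0.0182 and 0.00533, edgeR). A gene on the opposite strand overlaps 24.6% of the exon bases of ZNF460, and counting was unstranded.

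The 19p-4 cluster held 3 decreases that were called in both knockdowns, ZNF724, ZNF681 and ZNF726. ZNF724 (chr19:23221599-23250394) was at 24.03, 28.77 and 31.39 CPM in control cells, 13.8, 12.9 and 17.7 CPM in the NELFE knockdown and 13.0 and 16.5 CPM in the NELFB knockdown. The fitted log2 fold change was -0.93 in both (adjusted p = 0.00465 and 0.00558, edgeR), but 44.7% of its exon bases are shared with another gene. ZNF681 (chr19:23739195-23758891), which shares no exon base, was at 22.71, 24.47 and 23.42 CPM in control cells, 13.7, 14.9 and 17.9 CPM in the NELFE knockdown and 13.4 and 14.7 CPM in the NELFB knockdown. It fell by 0.60 and 0.74 on the log2 scale (adjusted p = 0.00887 and 0.00449, edgeR). For ZNF726, NELFE knockdown replicate 3 (19.8 CPM) approached the lowest control library (21.7 CPM), and the decrease was called in 1 of 8 omissions of a library in the NELFE knockdown and in 3 in the NELFB knockdown.

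ZNF274 (ENSG00000171606.17, 19q-5, chr19:58183029-58213562), which binds zinc finger genes themselves and recruits SETDB1 to them, was also lower in both knockdowns. It was at 31.1, 29.7 and 29.2 CPM in control cells, at 20.7, 20.1 and 24.4 CPM in the NELFE knockdown and at 23.5 and 23.7 CPM in the NELFB knockdown. All knockdown libraries lay below all control libraries. The log2 fold change was -0.47 (SE 0.10, adjusted p = 0.0114, edgeR) and -0.35 (SE 0.11, adjusted p = 0.0464, edgeR), and the call in the NELFB knockdown held in 1 of 8 omissions of a library, across which the log2 fold change stayed between -0.36 and -0.32. ZNF8, ZNF850, ZNF813 and ZNF749 had log2 fold changes between -0.40 and -0.65 without overlap between control and knockdown libraries. Their calls held in 3 (ZNF749) to 8 (ZNF8) of 8 omissions in the NELFE knockdown and in 3 to 7 in the NELFB knockdown, and ZNF8 shares 20.7% of its exon bases with other genes. ZNF766 was the remaining decrease, outside the 10 that the rule for named genes takes (log2 fold change -0.36 and -0.33), and its call held in 4 of 8 omissions of a library in the NELFE knockdown and in 1 in the NELFB knockdown.

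**Figure D3:**
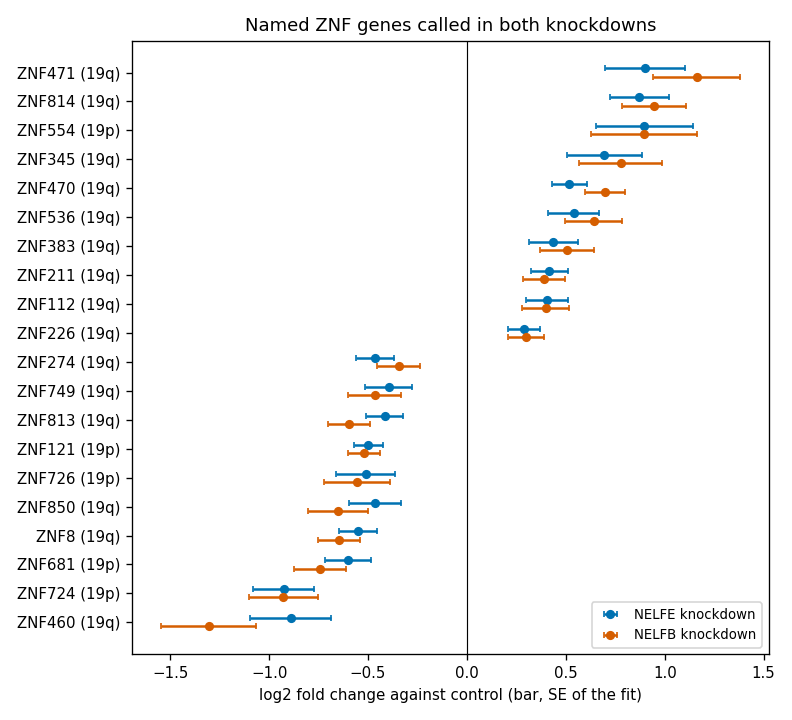
Log2 fold change against control (horizontal axis) with its SE from the fit, for the 10 increases and the 10 largest decreases called in both the NELFE knockdown (blue) and the NELFB knockdown (orange). Values of both knockdowns lie on the same side of 0 for each gene, as the choice of genes requires, and both use the same control libraries.

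Of the 187 tested members, 3 had a call after NELFE depletion only and 9 after NELFB depletion only, against 2.83% and 7.40% of all genes. Outside the guide-matched genes, those of the NELFE knockdown were ZNF552, which rose, and ZNF414 and ZNF507, which fell. In the NELFB knockdown ZNF846 rose and ZNF101, ZNF442, ZNF562 and ZNF700 fell. They were chosen after their values were seen. Their calls held in none (ZNF552) to 6 (ZNF846 and ZNF442) of 8 omissions of a library. ZNF568 was also called up there, but it passed the filter on low counts only through the NELFB libraries, where it was high, so its call is no support for a rise. This gene, whose mouse counterpart represses a placental form of Igf2, had 2 or 3 reads in each control library and between 6 and 13 in each knockdown library. The ratio of its CPM to control was 4.44 in the NELFB knockdown and 2.81 in the NELFE knockdown, with 95% exact intervals of 1.93 to 11.4 and 1.21 to 7.31 that cover counting error only and not this choice. For none of these genes, ZNF568 included, was a difference between the knockdowns called, so a call in a single knockdown does not show that the knockdowns differed. ZNF91, known for silencing SVA and L1 retrotransposons, was at 47.2, 49.5 and 55.9 CPM in control cells and between 41.3 and 48.1 CPM in the knockdowns, and was called in neither (adjusted p = 0.157 and 0.438, edgeR). It was chosen for its known role.

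Between the knockdowns, ZNF443, ZNF799 and ZNF823 were called, and no other member. Over all tested genes 0.315% were called in this comparison, 0.237% higher in the NELFE knockdown and 0.0771% lower. Among ZNF genes of other chromosomes 3 of 206 were called (1.46%), near the 1.60% of the members. Before adjustment, 7 of 187 members had a p under 0.05, against 5.12% of all genes. ZNF823 (ENSG00000197933.12, chr19:11721265-11739009) was at 7.49, 7.67 and 8.62 CPM in control cells, at 7.44, 5.16 and 8.42 CPM in the NELFE knockdown and at 1.45 and 1.32 CPM in the NELFB knockdown. The NELFE knockdown overlapped control cells, and the NELFB knockdown was far below both. ZNF799 (ENSG00000196466.10, chr19:12390016-12401271) was at 3.28, 2.93 and 3.59 CPM in control cells, at 3.12, 1.89 and 3.21 CPM in the NELFE knockdown and at 0.332 and 0.342 CPM in the NELFB knockdown. ZNF443 (ENSG00000180855.15, chr19:12429706-12441021) was at 5.69, 5.67 and 5.73 CPM in control cells, at 4.99, 4.56 and 6.47 CPM in the NELFE knockdown and at 1.37 and 0.427 CPM in the NELFB knockdown.

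In NELFB-depleted cells the log2 fold change was -2.51 (SE 0.25) for ZNF823, -3.26 (SE 0.34) for ZNF799 and -2.65 (SE 0.36) for ZNF443, with adjusted p = 0.000225, 0.000323 and 0.00119 (edgeR). In the NELFE knockdown it was -0.18, -0.25 and -0.10 (adjusted p = 0.55, 0.476 and 0.836, edgeR). The difference between the knockdowns was 2.33, 3.00 and 2.56 on the log2 scale (adjusted p = 0.00127, 0.00227 and 0.0112, edgeR). These genes lie in the same cluster and carry the same site. Of the 65-base windows of ZNF799 and ZNF443, 21.5% and 25.6% are repeated on chromosome 19, so their counts are less certain, against 0.14% for ZNF823. Without NELFB knockdown replicate 2, none of these differences was called, and without replicate 1 that of ZNF799 was not. A single NELFB library then remains and the other groups supply the spread. Over all omissions the log2 differences of ZNF823, ZNF799 and ZNF443 stayed at or above 2.18, 2.88 and 1.96, with an adjusted p of at most 0.0541, 0.079 and 0.0595 (edgeR).

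All 239 members were searched for a PAM-adjacent match to either guide RNA within 500 bases of an annotated start. ZNF443, ZNF799 and ZNF823 were the members with 9 or more bases of the NELFB guide RNA, 1.26% of the set, and each had 10. No member had more than 8 bases of the NELFE guide RNA. Among all tested genes that were searched, 0.997% (166 of 16645) had 9 or more bases of the NELFB guide RNA, a share near that of the members. Of these 166 genes, NELFB itself included, 22 rose and 41 fell (24.7%) in the NELFB knockdown, against 8.88% down over all genes, and 15 rose and 8 fell (4.82%) in the NELFE knockdown, against 7.04%. Among the 98 genes with 10 or more bases, 13 rose and 37 fell (37.8%) in the NELFB knockdown and 10 rose and 3 fell (3.06%) in the NELFE knockdown. With 8 or more bases (1309 genes) 12.8% and 8.40% fell. A higher level after NELFE than after NELFB depletion was called for 29 of the 166 genes, and for 40 over all genes. Whether the guide RNA acts at these sites was not tested.

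Members with 8 bases of the NELFB guide RNA were ZNF181, ZNF274, ZNF44, ZNF444, ZNF813 and ZNF91, and their log2 fold changes in the NELFB knockdown ranged from -0.60 to 0.45. ZNF44 has a related site and lies in the same cluster as ZNF443 and ZNF799, though not next to them. Its level was 11.01, 11.26 and 11.08 CPM in control cells, 9.85, 9.68 and 11.9 CPM in the NELFE knockdown and 10.0 and 8.93 CPM in the NELFB knockdown. ZNF44 had a log2 fold change of -0.23 after NELFB depletion (adjusted p = 0.274, edgeR). When the 3 guide-matched genes were left out of the 19p set, 2 members rose and 8 fell of 49 tested in the NELFB knockdown, 16.3% down in place of 21.2%, and the median was -0.10.

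**Figure D4:**
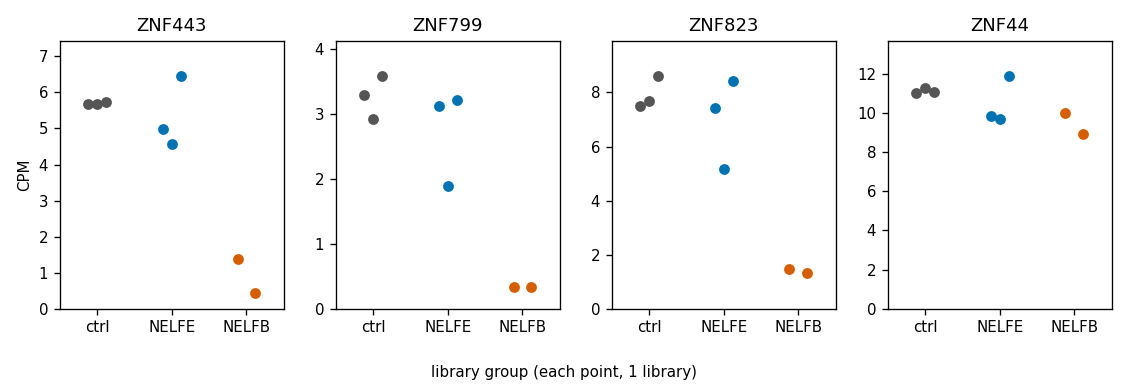
CPM in each library (points, vertical axis from 0) of ZNF443, ZNF799 and ZNF823, which share 10 bases with the NELFB guide RNA beside a PAM, and of ZNF44, which shares 8, in control cells (ctrl), the NELFE knockdown and the NELFB knockdown. In the first 3 genes the NELFB libraries lie below all others, and in ZNF44 they lie between 8.93 and 10.0 CPM.

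Members were also split by protein features. The canonical coding sequences held a median of 12 C2H2 finger patterns, from 1 to 39, and 203 of 239 members matched a KRAB pattern. After NELFE depletion, 12.2% of the 156 tested members with the KRAB pattern were called, and 16.1% of the 31 without it, against 15.0% of all genes. In the NELFB knockdown the shares were 17.3%, with the 3 guide-matched genes included, and 9.68%, against 19.5% of all genes. The direction of this difference thus turned between the knockdowns, and it rests on 5 and 3 called genes without the pattern. Median log2 fold changes lay between -0.04 and 0.00 in all 4 groups.

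Of 30 genes for the corepressors and H3K9 methylation machinery with which KRAB proteins work, all were tested, and 1 rose and 4 fell in each knockdown (16.7% called, against 15.0% and 19.5% of all genes). The median log2 fold change was -0.06 and -0.13. TRIM28, the corepressor that binds KRAB domains, was at 531, 630 and 672 CPM in control cells, at 478, 466 and 509 CPM in the NELFE knockdown and at 441 and 491 CPM in the NELFB knockdown. Knockdown libraries lay below control libraries, by a log2 fold change of -0.33 (SE 0.09, adjusted p = 0.0395, edgeR) and -0.39 (SE 0.11, adjusted p = 0.029, edgeR). UHRF1, which directs maintenance methylation of DNA, had the largest decrease of the list (log2 fold change -0.52 and -0.70, adjusted p = 0.0132 and 0.00488, edgeR). SUV39H1, an H3K9 methyltransferase, fell in both (-0.36 and -0.38, adjusted p = 0.0455 and 0.0492, edgeR). TASOR of the HUSH complex fell in the NELFE knockdown (-0.25, adjusted p = 0.0475, edgeR). EHMT2, another H3K9 methyltransferase, fell in the NELFB knockdown (-0.29, adjusted p = 0.0296, edgeR). Several of these values lie close to the threshold, and calls with single libraries left out are not given for this list.

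TRIM24, a relative of TRIM28 that reads histone marks, was the gene of this list that rose. It was at 197, 259 and 269 CPM in control cells, at 414, 405 and 425 CPM in the NELFE knockdown and at 551 and 484 CPM in the NELFB knockdown. All knockdown libraries were well above control cells, with log2 fold changes of 0.78 (SE 0.11, adjusted p = 0.0027, edgeR) and 1.10 (SE 0.12, adjusted p = 0.000492, edgeR). SETDB1, the methyltransferase recruited by TRIM28, had log2 fold changes of 0.06 and 0.04 and was not called (adjusted p = 0.633 and 0.772, edgeR).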

How the data were processed

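The 8 libraries hold polyadenylated RNA of HAP1 cells. The authors aligned single-end 65-base reads to GRCh38 with STAR 2.5.4a and deposited unstranded read counts per Gencode v24 gene. FastQC 0.11.6 is named in the submitters' processing notes. No normalization is included in the counts, and reads that overlap several genes or align to several places are not counted, which lowers the counts of similar zinc finger genes. Antisense partners cannot be told apart by strand.

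Rows were matched to GENCODE v44 by Ensembl identifier (56558 of 60725 rows, 99.88% of counts). Tests used edgeR 4.0.16 under R 4.3.3, with filterByExpr, TMM and a robust quasi-likelihood fit, in a model of the 3 groups, and in a model of pooled knockdowns against control. P-values were Benjamini-Hochberg adjusted over all tested genes and called under 0.05. CPM use TMM-scaled library sizes, and TPM the union of exons. For ratios per library, 0.1 was added to CPM. No p-value was computed for a list of members.

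Named genes were the 10 largest increases and 10 largest decreases called in both knockdowns, the 3 most abundant members of each arm, members called between the knockdowns, members with at least 9 PAM-adjacent bases of the NELFB guide RNA within 500 bases of a start, the 3 guide RNA targets, and the corepressor list. Position clusters needed 5 members. The members and lists were chosen with earlier results of these data known. Fingers were counted as pairs of cysteines and histidines spaced 2 to 4, 12 and 3 to 5 residues apart. KRAB domains were found by pattern in the first 250 residues.

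The alternatives were DESeq2 1.42.0, its size factors in edgeR, no filter, a minimum of 10 counts throughout, a block for the replicate number, omission of single libraries, only the libraries compared, other scalings and clusters joined at 0.5 Mb. Omission of control replicate 1 with NELFE knockdown replicate 3, of the guide-matched members and of members with much shared sequence were added after the data were seen. The test was tried on simulated counts before use. Reads carry no molecular identifiers, so they are not independent molecules.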

Additional observations from a re-analysis of the deposited data

Results flagged for a closer look

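ZNF823, ZNF799 and ZNF443 stood out because their response differed between the knockdowns by a test of the difference itself in the edgeR model of the 3 groups. The log2 difference, NELFE knockdown over NELFB knockdown, was 2.33 for ZNF823 (SE 0.25, adjusted p = 0.00127), 3.00 for ZNF799 (SE 0.34, adjusted p = 0.00227) and 2.56 for ZNF443 (SE 0.36, adjusted p = 0.0112). Both NELFB libraries were below all 6 other libraries for each gene. With each library left out in turn, the difference was called in 7, 6 and 7 of 8 omissions, respectively. Each gene carries the same 10 bases of the NELFB guide RNA beside a PAM, and whether this bears on the decrease was not tested.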

How the results depend on the processing

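No member called in a comparison changed direction under the alternatives fitted (0 of 360 values in the NELFE knockdown, 0 of 447 in the NELFB knockdown, 0 of 44 between them and 0 of 602 with pooled knockdowns). Those members were chosen by their calls and the alternatives reuse the same libraries, so few changes of direction could arise. Members called up in the NELFE knockdown were 7 without a filter on low counts, 5 with only the libraries compared and 17 without control replicate 1 and NELFE knockdown replicate 3, against 11. Omitting that pair of libraries also gave 36 down in the NELFE knockdown, 24 up and 34 down in the NELFB knockdown, 38 down with pooled knockdowns, and 19p medians of -0.1942 in the NELFE and -0.1561 in the NELFB knockdown. Without the filter, where genes with few reads enter, these medians were -0.0308 and -0.048 and the differences between the arms 0.052 and 0.0562. Of the 3 members called between the knockdowns, 1 remained (ZNF823) among members with little shared sequence.

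With single libraries left out, 2 to 10 members rose and 4 to 15 fell in the NELFE knockdown, 2 to 18 and 5 to 21 in the NELFB knockdown, and 9 to 20 and 12 to 29 with pooled knockdowns. Between the knockdowns 0 to 3 were called. The 19p median ranged from -0.1589 to -0.0594 in the NELFE and from -0.1565 to -0.0864 in the NELFB knockdown, and the difference between the arms from 0.0664 to 0.1521 and from 0.1296 to 0.1796. Calls over all genes fell to 3.45% in the NELFB knockdown without its replicate 1 and to 5.91% in the NELFE knockdown without its replicate 1. For the named genes, 3996 values kept their side of the threshold, 291 lost and 113 gained it.

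Replicate numbers were not taken as pairing, since 4 of 7 same-numbered pairs, not all, had correlated deviations above 0.1 (-0.021 to 0.451). Pairs with different numbers ranged lower, from -0.377 to 0.231. Whether the number marks a shared batch was not tested. With the number as a block, 39 members were called in the NELFE knockdown in place of 24, of which 24 fell in place of 13, and 37 in the NELFB knockdown in place of 30, where the 19p median was -0.0627. Over all genes 28.3% and 28.5% were then called, in place of 15.0% and 19.5%. Reads were too few for the 52 members left without a test, and the reason for this was not tested.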
